A study of Mus musculus with 128 samples.

Results

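The libraries described here were made from single hepatocytes of control mouse livers before partial hepatectomy (d0) and 2 days after it (d2). They were chosen by their labels alone: the P60 TbgCre Pard3WT group at PHx d0 and at PHx d2, with 2 libraries each, which is 4 of the 106 RNA libraries and 4 of the 128 samples in the series. The 4 libraries hold 113 cells at d0 and 83 at d2, 196 of the 4264 cells in the table. All mice in the comparison were C57BL/6 animals of postnatal day 60 that carried Pard3-fl/fl, an allele of the polarity gene Pard3 that Cre recombinase can delete. The labels of the Pard3WT libraries give "control" and the day after hepatectomy, and list no virus. The Pard3HMKO livers used below for comparison had the same strain, age and Pard3-fl/fl genotype, and their labels give an injection of AAV-Tbg-Cre, a virus that makes Cre from the hepatocyte promoter Tbg, with 7 d beside it. They were also sampled at d0 and d2, with 2 libraries each, so virus and Pard3 deletion cannot be told apart in any difference between the genotypes. The labels do not say whether libraries of a group came from separate animals, so p-values measure the spread between these libraries, which may be technical. No library of a sham operation at d2 was among the samples used here, so effects of surgery and of liver loss cannot be told apart.

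Partial hepatectomy removes a large part of the liver, and the remaining hepatocytes, which are mostly quiescent, are known to grow and enter the cell cycle. Cytokines such as IL-6 act on hepatocytes early after surgery through the transcription factor Stat3 and switch on acute phase proteins, which are secreted into the blood. Growth factors such as HGF and EGF receptor ligands drive the passage from G1 into S phase, and a mouse liver is known to replicate DNA around the second day. Meanwhile the organ has to keep up blood glucose, bile acid flow and ammonia removal, functions that hepatocytes divide among themselves by their position between the portal vein and the central vein.

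The 7 cells of d2 replicate 1 gave 5735612 reads, against 71134473 reads from the 76 cells of d2 replicate 2. The d0 libraries held 53 and 60 cells with 42052874 and 56297172 reads. Between these replicate libraries the median absolute log2 difference, over the genes with at least 10 CPM, was 0.349 at d2 and 0.171 at d0. In Pard3HMKO it was 0.165 at d2 and 0.158 at d0. Among these pairs the wider gap was thus seen only in the one with the 7-cell library. Levels are given in CPM: reads of a gene summed over a library's cells, scaled so that the library's total, corrected by its TMM factor, is 1000000. Every cell had reads for at least 93.3 percent of 15 hepatocyte markers, among them albumin. Markers of other cell types were present at levels that differed between libraries, and at most 1 member of each of these lists was called. Summed over 17 macrophage and myeloid markers the level was 53.0 and 49.9 CPM at d0 and 74.9 and 121 CPM at d2. Over 12 cholangiocyte markers it was 228 and 70.1 CPM at d0 and 539.7 and 1945 CPM at d2, where Spp1 alone was at 457 and 1839.6 CPM and was not called (adjusted p = 0.249). Over 14 erythroid markers it was 48.1 and 593 CPM at d0 and 4973 and 7.59 CPM at d2, where nearly all haemoglobin reads of replicate 1 came from 1 cell. Over 15 endothelial markers it was 54.2 and 19.8 CPM at d0 and 25.2 and 9.25 CPM at d2, over 15 stellate cell and fibroblast markers 9.68 and 20.6 and 8.01 and 42.4 CPM, and over 16 lymphocyte markers 0.668 and 0.687 and 1.36 and 2.49 CPM. Reads for at least 50 percent of the macrophage markers were found in 27 of 53 and 41 of 60 cells at d0 and in 5 of 7 and 11 of 76 cells at d2. The part of these transcripts in the results was not tested beyond the counts given below without such cells. Spp1 was called by limma with each cell weighted equally (adjusted p = 0.0499). Without d0 replicate 1 the log2 change was 4.35 for Spp1. Without d0 replicate 2 the log2 change was 2.54 for Spp1. Without d2 replicate 1 the log2 change was 3.86 for Spp1. Without d2 replicate 2 the log2 change was 1.84 for Spp1.

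At d2, the share of a library's reads was higher for most acute phase proteins. It was also higher for 50 percent or more of the tested genes of metal handling, ER chaperones, the cytoskeleton and cholesterol synthesis. It was lower for most tested cytochromes P450, complement factors, male-biased genes and genes of bile acids and amino acid breakdown. All changes are relative in this way, and amounts of transcript per cell are not known. Of 15391 genes tested by edgeR's quasi-likelihood test, 2411 (15.7 percent) were called at an adjusted p under 0.05. Of these, 891 rose (5.79 percent of the genes tested) and 1520 fell (9.88 percent), among them 310 that rose and 563 that fell by at least 4-fold. The counts of list members below are to be read beside these shares of 5.79 and 9.88 percent. All changes below are log2 differences of d2 from d0 in this fit, with ± for the standard error, which shares its estimate of spread with all 18 adult libraries, and a gene is said to rise or fall only when called. Without the library of 7 cells, 1676 genes were called and 1533 of the 2411 calls remained. A fit of the 4 libraries alone called 1537. The share of calls that rose was 37.0 percent, and between 27.4 and 43.9 percent over 11 other settings, which leave out each library in turn or change the scaling, the test or the cells used. A fit without the filter on low counts is not among these settings, because its prior degrees of freedom were infinite for 100 percent of 24158 genes, so that its p-values take no account of a gene's own spread. Without the cells that held at least 50 percent of the markers of another cell type, 1831 genes were called. This left out 27 of 53 and 43 of 60 cells at d0, and 5 of 7 and 14 of 76 cells at d2. Few cells of d2 replicate 1 thus remained in this setting. A marker counted with any read and without thinning, so marking can depend on depth. Calls lost or gained in this setting are therefore not put down to other cell types.

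Over all genes tested, both d2 libraries lay above both d0 libraries in 22.4 percent and under both in 29.6 percent, so the lack of overlap stated for single genes below is common and carries no call by itself. Some of the largest rises were in genes that were nearly absent before surgery. The 12 largest rises and the 12 largest falls were chosen among called genes whose libraries do not overlap between days, so their lack of overlap is no result. Cxcl14, a chemokine, was at 0.167 and 0.0362 CPM in the d0 libraries and at 108 and 123 CPM in the d2 libraries (log2 change 10.21 ± 0.83, adjusted p = 8.89e-08). Sult1e1, the sulfotransferase that inactivates oestrogens, was at 0.191 and 0.127 CPM at d0 and 89.5 and 111 CPM at d2 (log2 change 9.30 ± 1.32, adjusted p = 1.37e-04). Nid1, which codes for the basement membrane protein nidogen, was at 0.238 and 0.145 CPM at d0 and 68.4 and 67.2 CPM at d2 (log2 change 8.47 ± 0.81, adjusted p = 1.67e-07). In all 3 genes both d2 libraries, including that of 7 cells, were far above both d0 libraries. Lcn2, the iron-trapping acute phase protein lipocalin 2, was at 34.7 and 87.3 CPM at d0 and 13405 and 12943 CPM at d2 (log2 change 7.75 ± 0.90). Cd14, the coreceptor for bacterial lipopolysaccharide, was at 1.55 and 0.651 CPM at d0 and 94.1 and 162 CPM at d2 (log2 change 6.89 ± 1.00). Bmper, a secreted regulator of BMP signalling, was at 0.0477 and 0.145 CPM at d0 and 24.4 and 27.0 CPM at d2 (log2 change 7.95 ± 0.97). These 3 genes also lay far above d0 in both d2 libraries. The log2 change without d0 replicate 1 was 11.52 for Cxcl14 and 7.61 for Cd14. The log2 change without d0 replicate 2 was 9.40 for Cxcl14, 8.57 for Lcn2 and 8.98 for Bmper.

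Among the other large rises the d2 libraries differed more from each other. Serpina3i, a serine protease inhibitor of a family of near-identical genes that can share reads, had 3 reads in both d0 libraries together and 771 at d2, a ratio of 325 per total read (111 to 1579, exact 95 percent interval of counting error only), with 34.6 and 7.995 CPM in the d2 libraries. Akr1b7, an aldo-keto reductase, was at 0 and 0.0723 CPM at d0 and 21.3 and 7.43 CPM at d2 (log2 change 8.40 ± 1.49, adjusted p = 4.23e-04). Ly6d, a small surface protein, was at 0.191 and 2.35 CPM at d0 and 138 and 379 CPM at d2 (log2 change 7.62 ± 1.70, adjusted p = 0.00771). Slpi, the secretory leukocyte protease inhibitor, was at 1.55 and 0.235 CPM at d0 and 180.1 and 151 CPM at d2 (log2 change 7.58 ± 2.04, adjusted p = 0.0230). In these 4 genes no d2 library overlapped a d0 library, and the d0 libraries were themselves far apart in Ly6d. On a scale that weights each cell equally and adds 1 CPM before the logarithm, the 12 largest rises lay between 3.87 (Akr1b7) and 9.10 (Mt2). Akr1b7 was not called without cells holding markers of other types (adjusted p = 0.144). Ly6d was not called with only the 4 libraries compared (adjusted p = 0.135) or without d0 replicate 1 (adjusted p = 0.0844). Slpi was not called without d0 replicate 1 (adjusted p = 0.101), without d0 replicate 2 (adjusted p = 0.186) or without d2 replicate 1 (adjusted p = 0.0553). Leaving out d0 replicate 1 gave a log2 change of 7.56 for Akr1b7, 6.78 for Ly6d and 9.44 for Slpi. Leaving out d0 replicate 2 gave a log2 change of 12.11 for Akr1b7, 10.38 for Ly6d and 6.73 for Slpi. The log2 change without d2 replicate 1 was 7.89 for Serpina3i and 7.48 for Akr1b7. The log2 change without d2 replicate 2 was 9.98 for Serpina3i and 6.70 for Ly6d.

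**Figure D1:**
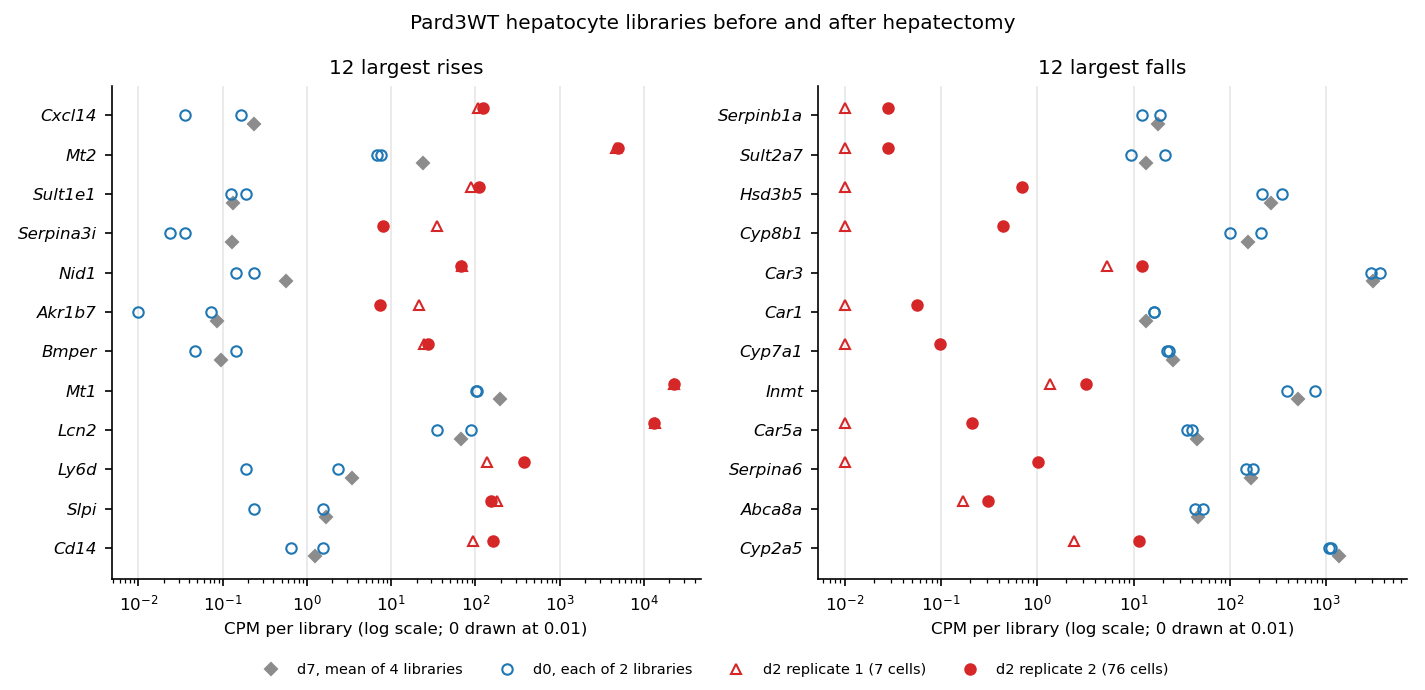
CPM on a logarithmic axis of the 12 called genes that rose most (left) and the 12 that fell most (right): open blue circles are the d0 libraries, the open red triangle is d2 replicate 1, the filled red circle is d2 replicate 2 and the grey diamond is the mean of the 4 d7 libraries. The genes were chosen so that the libraries of the days do not overlap; the plot shows the size of each change and the d7 levels.

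Acute phase proteins, which the liver secretes in response to inflammatory cytokines, formed the list with the largest share of rises: of 24 tested members 17 were called, all higher at d2 (70.8 percent), and the median log2 change was 2.22, against -0.05 over all genes tested. Over the 11 other settings 13 to 20 rose, and without the 7-cell library 16 rose. Apcs, serum amyloid P, was at 252 and 245 CPM at d0 and 3844 and 2959.5 CPM at d2 (log2 change 3.78 ± 0.25, adjusted p = 1.26e-09). Orm1, orosomucoid, was at 2118 and 3079 CPM at d0 and 17177 and 18695 CPM at d2 (log2 change 2.79 ± 0.27, adjusted p = 2.01e-07). Steap4, a metalloreductase, was at 56.4 and 44.5 CPM at d0 and 1162 and 1668 CPM at d2 (log2 change 4.81 ± 0.46, adjusted p = 1.13e-06). The 2 libraries of each day were close in these genes and the days did not overlap. Cp, the copper-carrying ferroxidase ceruloplasmin, was at 739 and 888 CPM at d0 and 3573 and 5381 CPM at d2 (log2 change 2.46 ± 0.31). Serpina3n and Serpina3m, protease inhibitors of the antichymotrypsin family, rose by 2.08 and 2.28. Saa1, serum amyloid A1, was not called: it was at 2573 and 10136 CPM at d0 and 47098 and 53085 CPM at d2, above d0 in both libraries, but the d0 libraries were far apart (log2 change 2.98 ± 1.24, adjusted p = 0.139). Saa2 was likewise at 898 and 4579.8 CPM at d0 and 53833 and 57825 CPM at d2 (log2 change 4.35 ± 1.70, adjusted p = 0.114). Saa1 was called by DESeq2 (adjusted p = 0.0231) and by limma with each cell weighted equally (adjusted p = 0.0168). Saa2 was called by DESeq2 (adjusted p = 0.00741) and by limma with each cell weighted equally (adjusted p = 0.00719). With d0 replicate 1 left out, the log2 change was 2.30 for Saa1 and 3.60 for Saa2. With d0 replicate 2 left out, the log2 change was 4.28 for Saa1 and 5.95 for Saa2.

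In cytokine signalling, of 17 tested members 9 rose and 1 fell, with a median log2 change of 2.16. Without the 7-cell library 8 rose and 1 fell, and over the 11 other settings 6 to 11 rose and 1 fell. Stat3, the transcription factor itself, was at 24.2 and 28.6 CPM at d0 and 103 and 92.6 CPM at d2 (log2 change 1.89 ± 0.22, adjusted p = 2.53e-06). Il1r1, the receptor for interleukin 1, was at 16.8 and 13.4 CPM at d0 and 124 and 217 CPM at d2 (log2 change 3.50 ± 0.55, adjusted p = 2.61e-04). Tnfaip3, the deubiquitinase A20 that limits NF-kappaB, was at 0.453 and 1.27 CPM at d0 and 17.7 and 19.45 CPM at d2 (log2 change 4.42 ± 0.73, adjusted p = 1.72e-04). The member that fell was Lifr, the receptor for leukaemia inhibitory factor, at 194 and 127 CPM at d0 and 27.6 and 16.6 CPM at d2 (log2 change -2.89 ± 0.28). Both days stood apart in all 4 genes. The letters TTCNNNGAA, a match to the STAT binding site that reads alike on both strands, were found in the promoters of 6 of the 19 acute phase genes with a promoter in the RefSeq table (31.6 percent, from 250 bases before to 50 after the start), of which 4 rose. Over the genes tested that have a promoter there the share was 8.52 percent. A fit without d0 replicate 2 gave 5.35 for Tnfaip3 on the log2 scale.

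Metallothioneins, small cysteine-rich proteins that bind zinc and copper, are represented by Mt1 and Mt2, which both rose. Their upstream sequences from RefSeq (GRCm38.p6, plus strand, the 250 bases before the start) are printed here because Mt1 and Mt2 sit side by side on chromosome 8 and moved together. Capitals mark matches to TGCACNC or TGCGCNC, the core of the metal response element, on either strand.
Mt1 chr8:94178839-94179088: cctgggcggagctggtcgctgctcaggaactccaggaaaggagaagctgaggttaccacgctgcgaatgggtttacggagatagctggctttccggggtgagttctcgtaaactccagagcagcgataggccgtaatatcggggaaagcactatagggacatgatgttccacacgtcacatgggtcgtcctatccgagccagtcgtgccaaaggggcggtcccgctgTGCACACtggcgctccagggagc
Mt2 chr8:94172368-94172617: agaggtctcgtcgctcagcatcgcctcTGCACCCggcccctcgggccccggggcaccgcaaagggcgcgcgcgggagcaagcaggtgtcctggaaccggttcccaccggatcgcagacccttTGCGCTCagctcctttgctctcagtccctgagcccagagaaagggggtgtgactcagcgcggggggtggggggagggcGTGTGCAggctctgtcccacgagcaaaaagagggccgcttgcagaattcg
The Mt1 stretch holds 1 match and the Mt2 stretch 3, counted only in the 250 bases before the RefSeq start. Matches outside these bases are not counted here, so the numbers do not rank the promoters of both genes. Such a match was found in 5 of 7 genes of the metal list with a promoter in the table (71.4 percent), against 39.1 percent of the genes tested, and it is a description of letters, not of binding.

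Mt1 was at 101 and 103 CPM at d0 and 22444 and 22524 CPM at d2 (log2 change 7.79 ± 1.59, adjusted p = 0.00434). Mt2 was at 6.72 and 7.58 CPM at d0 and 4587 and 4880.4 CPM at d2 (log2 change 9.37 ± 1.83, adjusted p = 0.00315). The libraries of each day were close to each other, while the standard errors, from a fit that shares its spread with the other adult groups, were wide. Of 13 tested genes of metal handling 7 rose and 1 fell. Leaving out the 7-cell library, 7 rose and 2 fell, and 3 to 7 rose and 1 to 2 fell over the 11 other settings. Of the list, 3 rose and 1 fell without d0 replicate 1. Slc39a14, a zinc and iron importer, was at 31.6 and 32.3 CPM at d0 and 129 and 178 CPM at d2 (log2 change 2.27 ± 0.27, adjusted p = 3.00e-06). Tfrc, the transferrin receptor that brings iron in, was at 6.65 and 3.85 CPM at d0 and 28.3 and 29.1 CPM at d2 (log2 change 2.45 ± 0.48). Slc40a1, the iron exporter ferroportin, was at 34.8 and 57.4 CPM at d0 and 8.18 and 13.53 CPM at d2 (log2 change -2.04 ± 0.37). The importers were thus high and the exporter low in both d2 libraries. Mt1 was not called without d0 replicate 1 (adjusted p = 0.0607) or without d0 replicate 2 (adjusted p = 0.0617). Mt2 was not called without d0 replicate 1 (adjusted p = 0.0505).

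Chaperones of the endoplasmic reticulum, which fold secreted proteins, made up another group of rises. The ER stress response element joins the letters CCAAT and CCACG with 9 bases between them, and 7 of 29 genes of the list with a promoter in the table held it (24.1 percent, 6 of them called higher), against 0.184 percent of the genes tested. The 250 bases before the start are printed for Hspa5 (plus strand) and Hsp90b1 (minus strand), from RefSeq on GRCm38.p6, because both proteins are main chaperones of the organelle; capitals mark the element on either strand.
Hspa5 chr2:34771840-34772089: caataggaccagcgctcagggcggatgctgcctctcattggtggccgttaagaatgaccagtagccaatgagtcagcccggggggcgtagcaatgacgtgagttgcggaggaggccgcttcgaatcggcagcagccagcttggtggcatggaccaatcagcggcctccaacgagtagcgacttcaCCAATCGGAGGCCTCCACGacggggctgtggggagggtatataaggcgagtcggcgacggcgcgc
Hsp90b1 chr10:86705445-86705694: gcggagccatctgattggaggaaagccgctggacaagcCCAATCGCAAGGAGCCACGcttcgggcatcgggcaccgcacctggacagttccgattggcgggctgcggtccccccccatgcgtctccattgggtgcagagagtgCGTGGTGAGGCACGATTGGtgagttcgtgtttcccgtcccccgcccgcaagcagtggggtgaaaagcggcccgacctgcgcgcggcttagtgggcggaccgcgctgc
The Hspa5 stretch holds 1 match and that of Hsp90b1 holds 2.

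Of 32 tested members of the ER chaperone and stress list 17 rose and 3 fell, with a median log2 change of 1.31. The 11 other settings gave counts in which 13 to 18 rose and 0 to 4 fell, and without the 7-cell library 17 rose and 1 fell. Hspa5, the chaperone BiP, was at 390.3 and 369 CPM at d0 and 1034 and 1413 CPM at d2 (log2 change 1.69 ± 0.19, adjusted p = 1.44e-06). Hsp90b1 was at 373 and 329.9 CPM at d0 and 812 and 900.0 CPM at d2 (log2 change 1.28 ± 0.20, adjusted p = 6.63e-05). Manf, a secreted ER stress protein, was at 114 and 117 CPM at d0 and 592 and 604 CPM at d2 (log2 change 2.37 ± 0.15, adjusted p = 6.63e-10). In the 3 genes both d2 libraries were above both d0 libraries. Creld2, which is also secreted under ER stress, was at 38.9 and 36.7 CPM at d0 and 311 and 274 CPM at d2 (log2 change 2.95 ± 0.23). Pdia3 and Pdia6, which form disulfide bonds, rose by 1.15 and 1.13, and the chaperone Hyou1 by 1.77. Of 18 tested heat shock proteins of the cytosol 1 rose and 3 fell, shares of 5.56 and 16.7 percent against 5.79 and 9.88 percent over all genes tested, and over the 11 other settings 1 to 2 rose and 2 to 3 fell. The 1 that rose was Hsp90aa1, at 75.7 and 80.4 CPM at d0 and 129 and 177 CPM at d2 (log2 change 0.98 ± 0.17).

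In the cytoskeleton list, of 34 tested genes for actin, tubulin, keratin and their partners 19 rose and 1 fell. With the 7-cell library left out 12 rose and 0 fell, and over the 11 other settings 12 to 21 rose and 0 to 1 fell. In fits with 1 library left out, 12 rose and 0 fell without d0 replicate 1 or d0 replicate 2. Krt8 and Krt18 code for the keratin pair of hepatocytes. Krt8 was at 148 and 108 CPM at d0 and 1203 and 976 CPM at d2 (log2 change 3.09 ± 0.29, adjusted p = 9.98e-08). Krt18 was at 177 and 119 CPM at d0 and 1394 and 1126 CPM at d2 (log2 change 3.09 ± 0.23, adjusted p = 5.21e-09). Tubb2a, a beta tubulin, was at 10.4 and 14.6 CPM at d0 and 314 and 177 CPM at d2 (log2 change 4.29 ± 0.46, adjusted p = 1.94e-06). Both d2 libraries lay above both d0 libraries in each. Myosin and tropomyosin genes followed, with log2 changes of 1.82 for Myh9, the heavy chain of non-muscle myosin, 1.77 for its light chain Myl12a and 2.30 for Tpm1.

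Of the polarity and tight junction list, 7 of 40 tested members rose and 5 fell. In the fit without the 7-cell library 5 rose and 3 fell, and 3 to 8 rose and 2 to 9 fell over the 11 other settings. With other libraries left out, 4 rose and 5 fell without d0 replicate 1, 3 rose and 3 fell without d0 replicate 2 and 7 rose and 9 fell without d2 replicate 2. Pard3, the scaffold of the polarity complex and the gene that is floxed in these mice, was at 33.8 and 36.6 CPM at d0 and 15.3 and 22.1 CPM at d2 (log2 change -0.89 ± 0.23, adjusted p = 0.00869). Cldn14, a claudin of tight junctions, was at 4.75 and 5.70 CPM at d0 and 45.0 and 24.3 CPM at d2 (log2 change 2.71 ± 0.36, adjusted p = 1.05e-05). Cgn, the junction protein cingulin, was at 6.72 and 10.9 CPM at d0 and 31.5 and 32.3 CPM at d2 (log2 change 1.85 ± 0.28, adjusted p = 6.43e-05), and F11r, the junctional adhesion molecule A, rose by 1.35. Gjb1, the main gap junction protein of hepatocytes, was at 326 and 287 CPM at d0 and 157 and 153 CPM at d2 (log2 change -0.98 ± 0.17). Rdx, the microvillar protein radixin, fell to 26.8 and 48.6 CPM from 92.0 and 105 CPM (log2 change -1.37 ± 0.22). Members of 1 list thus moved in both directions. Pard3 was not called with only the 4 libraries compared (adjusted p = 0.0982), without d0 replicate 2 (adjusted p = 0.0720), without d2 replicate 1 (adjusted p = 0.126) or without cells holding markers of other types (adjusted p = 0.192).

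Enzymes of cholesterol synthesis rose in 10 of 20 tested members and fell in 3. Across the 11 other settings 4 to 13 rose and 2 to 3 fell, and 8 rose and 3 fell without the 7-cell library. In refits, 4 rose and 3 fell without d0 replicate 2. Mvd, which makes the isoprene unit, was at 5.48 and 5.23 CPM at d0 and 32.9 and 35.3 CPM at d2 (log2 change 2.67 ± 0.31, adjusted p = 1.94e-06). Lss, lanosterol synthase, was at 16.4 and 14.3 CPM at d0 and 60.0 and 83.1 CPM at d2 (log2 change 2.23 ± 0.29, adjusted p = 8.94e-06). Hmgcs1 and Sqle, enzymes of the same route, rose by 1.67 and 1.93. Insig1, a brake on the pathway's transcription factor, was lower in both d2 libraries, at 134 and 259.5 CPM, than at d0, at 549 and 569 CPM (log2 change -1.50 ± 0.29, adjusted p = 8.83e-04). The genes of fatty acid synthesis in the lipogenesis list gave 1 of 21 higher and 6 lower. Over the 11 other settings 0 to 1 rose and 3 to 6 fell, and without the 7-cell library 0 rose and 4 fell. The counts changed most by library, as 0 rose and 3 fell without d0 replicate 1. Srebf1, a master regulator of lipogenesis, was at 65.2 and 43.2 CPM at d0 and 8.87 and 6.97 CPM at d2 (log2 change -2.81 ± 0.52).

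Of 21 tested genes of lipid droplets and lipid uptake 7 rose, 6 fell and 8 were not called. Without the 7-cell library 6 rose and 4 fell, and over the 11 other settings 4 to 7 rose and 4 to 6 fell. Of the list, 4 rose and 4 fell without d0 replicate 2. Plin2, which coats lipid droplets, was at 425 and 448 CPM at d0 and 2243 and 1664 CPM at d2 (log2 change 2.16 ± 0.22, adjusted p = 3.69e-07). Cidec, which fuses droplets, was at 6.61 and 6.64 CPM at d0 and 130.3 and 109.8 CPM at d2 (log2 change 4.18 ± 0.45, adjusted p = 8.77e-07). Hilpda, an inhibitor of lipolysis, was at 3.03 and 4.14 CPM at d0 and 37.2 and 24.1 CPM at d2 (log2 change 3.08 ± 0.50, adjusted p = 1.30e-04). The 3 droplet proteins were higher in both d2 libraries. Fabp1, the fatty acid carrier of the hepatocyte cytosol, was at 29127 and 26455 CPM at d0 and 7214 and 5388 CPM at d2 (log2 change -2.14 ± 0.25). Slc27a2, which takes up long-chain fatty acids, was at 503 and 652 CPM at d0 and 124 and 164 CPM at d2 (log2 change -2.002 ± 0.25). Of the 30 tested genes of fatty acid oxidation 2 rose and 11 fell, led by Acsl1, which activates fatty acids, at 481 and 762 CPM at d0 and 67.9 and 65.3 CPM at d2 (log2 change -3.22 ± 0.26). Leaving out the 7-cell library, 1 rose and 10 fell, and 0 to 5 rose and 8 to 11 fell over the 11 other settings.

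**Figure D2:**
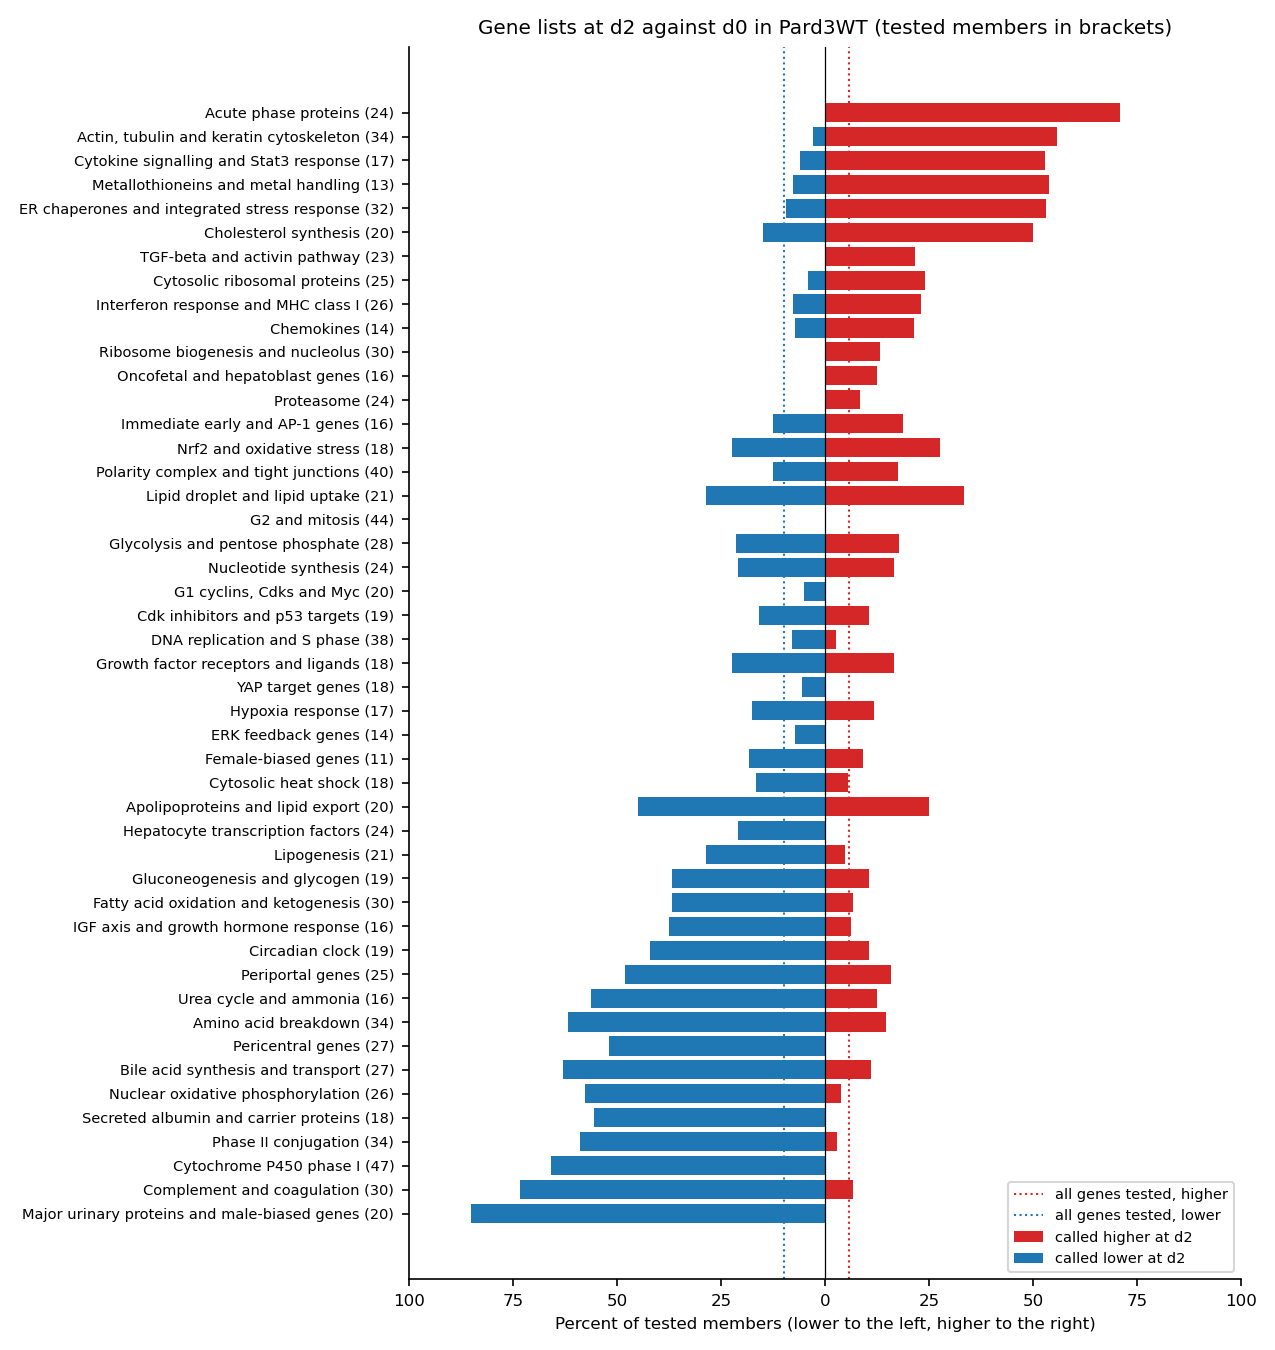
Percent of the tested members of each gene list with at least 10 of them that were called higher (red, to the right) or lower (blue, to the left) at d2 against d0, with the number of tested members in brackets. Dotted lines mark the same percentages over all 15391 genes tested, 5.79 higher and 9.88 lower; acute phase proteins reach furthest to the right and male-biased genes furthest to the left.

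The largest falls took genes of metabolism that are typical of mature liver to near 0. Car3, a carbonic anhydrase of high abundance in male liver, was at 3641 and 2907 CPM at d0 and 5.29 and 12.1 CPM at d2 (log2 change -8.46 ± 0.74, adjusted p = 1.40e-06). Cyp8b1, which sets the share of cholic acid in bile, was at 100.0 and 212 CPM at d0 and 0 and 0.436 CPM at d2 (log2 change -8.68 ± 0.84, adjusted p = 2.94e-06). Hsd3b5, a male-biased steroid dehydrogenase, was at 345 and 218 CPM at d0 and 0 and 0.690 CPM at d2 (log2 change -8.92 ± 0.94, adjusted p = 1.10e-05). In each gene both d2 libraries lay far under both d0 libraries, and the library of 7 cells held no read of Cyp8b1 or Hsd3b5. Serpina6, which codes for the corticosteroid carrier of blood, was at 173 and 145 CPM at d0 and 0 and 1.03 CPM at d2 (log2 change -7.57 ± 0.44). Inmt, an indole methyltransferase, was at 760.0 and 391 CPM at d0 and 1.36 and 3.18 CPM at d2 (log2 change -7.77 ± 0.76). Abca8a, a transporter, was at 52.2 and 43.8 CPM at d0 and 0.171 and 0.310 CPM at d2 (log2 change -7.35 ± 0.47). Again both d2 libraries were close to 0. Car5a, the mitochondrial carbonic anhydrase that feeds the urea cycle, and Car1, a cytosolic one, changed by -7.66 and -8.23. Serpinb1a, a protease inhibitor, had 1541 reads in the d0 libraries and 2 at d2, a ratio of 0.00164 (1.99e-04 to 0.00594), and Sult2a7, a sulfotransferase with near-identical neighbours, had 1556 and 2, a ratio of 0.00163 (1.97e-04 to 0.00588), both with exact 95 percent intervals of counting error only. Without d0 replicate 2 the log2 change was -8.05 for Cyp8b1. Leaving out d2 replicate 2 gave a log2 change of -9.28 for Car3, -8.73 for Inmt and -8.12 for Abca8a. The 7-cell library held 0 reads of Cyp8b1, Hsd3b5, Serpina6, Car5a and Car1, so without d2 replicate 2 no fold change is given.

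Cytochromes P450, which oxidise drugs, steroids and bile acid precursors, fell in 31 of 47 tested members, and the other 16 were not called. The median log2 change of the list was -2.21. The 11 other settings gave counts in which 0 to 1 rose and 25 to 33 fell, and without the 7-cell library 26 fell. Cyp2e1, which oxidises ethanol near the central vein, was at 6869.9 and 6626 CPM at d0 and 251 and 327 CPM at d2 (log2 change -4.54 ± 0.39, adjusted p = 1.65e-07). Cyp2c29, a pericentral enzyme as well, was at 1478 and 1590.3 CPM at d0 and 21.3 and 37.4 CPM at d2 (log2 change -5.68 ± 0.51, adjusted p = 7.18e-07). Cyp2f2, an enzyme of periportal cells, was at 962 and 1043 CPM at d0 and 40.9 and 51.5 CPM at d2 (log2 change -4.43 ± 0.27, adjusted p = 2.99e-10). Enzymes of both zones were lower in both d2 libraries. Cyp2a5, which shares much of its sequence with Cyp2a4, was at 1083 and 1113 CPM at d0 and 2.39 and 11.3 CPM at d2 (log2 change -7.15 ± 0.91). Of the 34 conjugation enzymes of phase II tested, 20 fell and 1 rose. The 1 that rose was Sult1e1, given above. With the 7-cell library left out 1 rose and 14 fell, and over the 11 other settings 1 to 2 rose and 13 to 22 fell. In fits with 1 library left out, 1 rose and 13 fell without d0 replicate 1. Gsta3, a glutathione transferase, was at 2323 and 1969 CPM at d0 and 194 and 175 CPM at d2 (log2 change -3.54 ± 0.23). Ugt2b36, a glucuronosyltransferase, was at 1126 and 1289.9 CPM at d0 and 171 and 227 CPM at d2 (log2 change -2.60 ± 0.18). With d2 replicate 2 left out, the log2 change was -8.85 for Cyp2a5.

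Bile acid genes fell in 17 of 27 tested members and rose in 3. In the fit without the 7-cell library 4 rose and 16 fell, and 2 to 4 rose and 15 to 18 fell over the 11 other settings. Cyp7a1, the rate-limiting enzyme of bile acid synthesis, was at 22.2 and 23.4 CPM at d0 and 0 and 0.0985 CPM at d2 (log2 change -7.95 ± 0.75, adjusted p = 4.08e-07). Hsd3b7 and Akr1d1, which act on the steroid ring in the same route, fell, with log2 changes of -2.39 and -3.11. Slc10a1, the sodium-coupled importer of bile acids from blood, was at 712 and 641 CPM at d0 and 41.3 and 59.8 CPM at d2 (log2 change -3.73 ± 0.22, adjusted p = 2.26e-10). Slco1b2, a sodium-independent importer, was at 1054 and 962 CPM at d0 and 50.1 and 87.9 CPM at d2 (log2 change -3.86 ± 0.28, adjusted p = 3.92e-09). Import and synthesis genes were thus low in both d2 libraries. Abcb11, the pump that exports bile acids into the canaliculus, was at 148 and 195 CPM at d0 and 74.2 and 87.5 CPM at d2 (log2 change -1.09 ± 0.21), a smaller change. Nr1h4, the bile acid receptor FXR, was at 103 and 117 CPM at d0 and 48.4 and 59.8 CPM at d2 (log2 change -1.02 ± 0.21). Abcb11 was not called without cells holding markers of other types (adjusted p = 0.124). As the 7-cell library held 0 reads of Cyp7a1, no fold change is given without d2 replicate 2.

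Amino acid breakdown showed 21 falls and 5 rises among 34 tested members. Across the 11 other settings 2 to 6 rose and 18 to 21 fell, and 3 rose and 21 fell without the 7-cell library. With other libraries left out, 3 rose and 20 fell without d0 replicate 1 and 2 rose and 18 fell without d0 replicate 2. The tyrosine route gives the clearest series. Hpd, a dioxygenase of the route, was at 1588 and 1532 CPM at d0 and 84.6 and 56.0 CPM at d2 (log2 change -4.48 ± 0.22, adjusted p = 1.51e-11). Hgd and Fah, which finish the route, fell, with log2 changes of -3.05 and -2.07. Tat, the transaminase that opens tyrosine breakdown and responds to glucocorticoids, was instead higher, at 284 and 236 CPM at d0 and 940.2 and 662 CPM at d2 (log2 change 1.62 ± 0.25, adjusted p = 7.47e-05). In ammonia handling 9 of 16 tested genes fell and 2 rose. Over the 11 other settings 1 to 2 rose and 6 to 12 fell, and without the 7-cell library 1 rose and 7 fell. Otc, the second enzyme of the urea cycle, was at 622 and 665 CPM at d0 and 104 and 93.0 CPM at d2 (log2 change -2.71 ± 0.29, adjusted p = 8.03e-07). Slc25a15, which carries ornithine into mitochondria for the same cycle, was higher, at 123 and 151 CPM at d0 and 374 and 280.1 CPM at d2 (log2 change 1.25 ± 0.19).

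Genes of glucose metabolism moved in both directions. In gluconeogenesis and glycogen 7 of 19 tested members fell and 2 rose. Without the 7-cell library 2 rose and 5 fell, and over the 11 other settings 1 to 2 rose and 5 to 8 fell. Pygl, which breaks glycogen down, was at 246 and 232 CPM at d0 and 33.1 and 45.9 CPM at d2 (log2 change -2.59 ± 0.20, adjusted p = 1.16e-08). Gys2, which builds it, was at 146 and 121 CPM at d0 and 24.4 and 25.6 CPM at d2 (log2 change -2.42 ± 0.23, adjusted p = 1.24e-07). Of 28 tested genes of glycolysis and the pentose phosphate route 5 rose and 6 fell. Leaving out the 7-cell library, 3 rose and 4 fell, and 3 to 5 rose and 3 to 7 fell over the 11 other settings. In refits, 3 rose and 3 fell without d0 replicate 1 or d0 replicate 2. Ldha, lactate dehydrogenase A, was at 483 and 617 CPM at d0 and 1837 and 1454 CPM at d2 (log2 change 1.58 ± 0.20, adjusted p = 5.15e-06). Pgd, of the pentose phosphate route, rose by 1.90 and Aldoa, an aldolase, by 1.03.

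Genes that mark positions along the lobule were called lower in part, at either end. Of 27 tested pericentral genes 14 fell and 13 were not called, and of 25 tested periportal genes 12 fell, 4 rose and 9 were not called. Among the pericentral genes, 10 to 19 fell over the 11 other settings, and 10 fell without the 7-cell library. Among the periportal genes, 2 to 5 rose and 10 to 14 fell over the 11 other settings, and 2 rose and 10 fell without the 7-cell library. The counts changed most by library, as 2 rose and 11 fell without d0 replicate 1 or d0 replicate 2. Cyp27a1 and Slco1b2 of the pericentral list fell, with log2 changes of -2.36 and -3.86. Hal and Uroc1, which break down histidine in periportal cells, fell, with log2 changes of -2.32 and -2.15. Pigr, the receptor that carries immunoglobulin A into bile, was at 581 and 696 CPM at d0 and 85.3 and 103 CPM at d2 (log2 change -2.76 ± 0.27, adjusted p = 1.83e-07). Glul, the glutamine synthetase of the cells next to the central vein, was at 938 and 625 CPM at d0 and 25.1 and 39.9 CPM at d2 (log2 change -4.57 ± 0.98, adjusted p = 0.00600). Its highest single cells are described with the cell levels. Glul was not called without d2 replicate 1 (adjusted p = 0.0753) or without cells holding markers of other types (adjusted p = 0.0757).

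Major urinary proteins and other male-biased genes, which depend on the pulsed growth hormone of male mice, fell in 17 of 20 tested members. The 11 other settings gave counts in which 13 to 20 fell, and without the 7-cell library 13 fell. Mup genes are near-identical copies, so reads may be split between them and single members are uncertain. The sex of the animals is not reported here, and its part in the falls of this list was not tested. Mup17 was at 3178 and 3875 CPM at d0 and 700.0 and 481 CPM at d2 (log2 change -2.58 ± 0.32, adjusted p = 6.56e-06). Slco1a1, a male-biased transporter, was at 328 and 233 CPM at d0 and 9.21 and 9.52 CPM at d2 (log2 change -4.90 ± 0.49, adjusted p = 1.77e-06). The receptors for growth hormone and prolactin were lower too. Ghr was at 554 and 502 CPM at d0 and 78.4 and 72.9 CPM at d2 (log2 change -2.80 ± 0.16, adjusted p = 1.55e-10). Prlr was at 70.1 and 80.4 CPM at d0 and 9.89 and 12.4 CPM at d2 (log2 change -2.74 ± 0.26). Of 16 tested genes of the IGF and growth hormone list 6 fell and 1 rose. With the 7-cell library left out 0 rose and 5 fell, and over the 11 other settings 0 to 2 rose and 5 to 7 fell. Igfals, which keeps IGF1 in the circulation, was at 62.5 and 60.1 CPM at d0 and 2.05 and 3.56 CPM at d2 (log2 change -4.32 ± 0.23). Igfbp2 fell by 2.12. A fit without d2 replicate 2 gave -4.91 for Igfals on the log2 scale.

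Secreted proteins of the blood did not all follow the acute phase list. Of 30 tested complement and coagulation genes 22 fell and 2 rose. In the fit without the 7-cell library 2 rose and 20 fell, and 0 to 3 rose and 19 to 22 fell over the 11 other settings. C9, the pore-forming complement factor, was at 359 and 411 CPM at d0 and 73.3 and 102 CPM at d2 (log2 change -2.13 ± 0.24, adjusted p = 1.63e-06). Serpind1, which codes for heparin cofactor II, was at 427 and 438 CPM at d0 and 94.0 and 114 CPM at d2 (log2 change -2.05 ± 0.18, adjusted p = 5.29e-08). Klkb1, plasma kallikrein, and F13b, of factor XIII, fell, with log2 changes of -3.11 and -1.98. Of 18 tested albumin-like and carrier proteins 10 fell and the other 8 were not called. Across the 11 other settings 0 to 2 rose and 10 to 12 fell, and 10 fell without the 7-cell library. Alb itself was not called, at 49478 and 54569 CPM at d0 and 36915 and 45779 CPM at d2 (log2 change -0.33 ± 0.16, adjusted p = 0.188), and Afp, alpha-fetoprotein, was at 1.67 and 0.506 CPM and 3.07 and 4.87 CPM (log2 change 1.90 ± 0.80, adjusted p = 0.123). Ttr, the thyroxine carrier transthyretin, was at 26248 and 27546 CPM at d0 and 9007 and 9297 CPM at d2 (log2 change -1.56 ± 0.16). Apolipoprotein genes were split, with 5 of 20 tested members higher and 9 lower. Over the 11 other settings 3 to 5 rose and 6 to 10 fell, and without the 7-cell library 5 rose and 6 fell. Of the list, 3 rose and 8 fell without d0 replicate 2 and 3 rose and 10 fell without d2 replicate 2. Apoa2, of HDL, was at 33824 and 35211 CPM at d0 and 11278 and 11552 CPM at d2 (log2 change -1.60 ± 0.13), and Apoa5, a regulator of plasma triglyceride, at 887 and 1015 CPM and 1669 and 2126 CPM (log2 change 1.00 ± 0.17). A fit without d0 replicate 1 gave 2.99 for Afp on the log2 scale. The log2 change without d0 replicate 2 was 1.27 for Afp.

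Nuclear genes of oxidative phosphorylation were lower by small amounts, with 15 of 26 tested members lower and 1 higher and a median log2 change of -0.54. Without the 7-cell library 0 rose and 11 fell, and over the 11 other settings 0 to 1 rose and 6 to 19 fell. In fits with 1 library left out, 0 rose and 6 fell without d0 replicate 1, 0 rose and 7 fell without d0 replicate 2 and 1 rose and 7 fell without d2 replicate 2. Cox8a, of complex IV, was at 724 and 760.2 CPM at d0 and 428 and 432 CPM at d2 (log2 change -0.79 ± 0.13, adjusted p = 1.87e-04). Atp5c1, of the ATP synthase, was at 404 and 381 CPM at d0 and 198 and 186 CPM at d2 (log2 change -1.03 ± 0.15, adjusted p = 5.39e-05). Both stayed called in every fit with 1 library left out. A pair of antioxidant enzymes was lower as well, while the Nrf2 and oxidative stress list, given below, had members in both directions. Cat, catalase, was at 2930.2 and 3630.5 CPM at d0 and 584 and 629 CPM at d2 (log2 change -2.44 ± 0.20, adjusted p = 1.53e-08), and Sod1 at 5622 and 5103 CPM and 2770.0 and 2472 CPM (log2 change -1.03 ± 0.14). Of 19 tested clock genes 8 fell and 2 rose. Leaving out the 7-cell library, 1 rose and 6 fell, and 0 to 4 rose and 6 to 9 fell over the 11 other settings. Nr1d2, a repressor in the clock's second loop, was at 55.7 and 54.8 CPM at d0 and 5.29 and 8.30 CPM at d2 (log2 change -2.96 ± 0.27). The hour of collection is not in the labels, so time of day and day after surgery cannot be told apart.

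The S phase and the G2 and mitosis lists held no larger share of calls than all genes tested (5.79 percent higher and 9.88 percent lower). Of 38 tested genes of DNA replication and S phase 1 rose and 3 fell, shares of 2.63 and 7.89 percent. Of 44 tested genes of G2 and mitosis 0 were called by edgeR, with 6 at an unadjusted p under 0.05 and 3 higher and 0 lower by DESeq2. The median log2 changes were 0.13 for S phase and 0.99 for G2 and mitosis, against -0.05 over all genes tested. In d2 replicate 2, 1 cell held 30.1 percent of the S phase reads and 29.7 percent of the G2 and mitosis reads. The medians are thus not read as a shift of all cells. A member that was not called is not thereby shown to be unchanged. Mki67, the proliferation marker, was at 0.238 and 0.0904 CPM at d0 and 0 and 1.75 CPM at d2 (log2 change 2.66 ± 2.09, adjusted p = 0.467). Top2a, the topoisomerase of dividing cells, was at 0.0477 and 0.0362 CPM at d0 and 0.341 and 3.76 CPM at d2 (log2 change 5.63 ± 2.06, adjusted p = 0.0755). Ccnd1, the G1 cyclin D1, was at 6.72 and 1.14 CPM at d0 and 11.9 and 11.9 CPM at d2 (log2 change 1.61 ± 0.94, adjusted p = 0.302), and Myc at 1.76 and 0.506 CPM and 2.39 and 4.15 CPM (log2 change 1.57 ± 0.80, adjusted p = 0.218). The d2 libraries were above those of d0 in Top2a, Ccnd1 and Myc, but none of the 3 was called and their values rest on single libraries, as given at the end. For S phase, 0 to 3 rose and 3 to 9 fell over the 11 other settings, and 0 rose and 3 fell without the 7-cell library. For G2 and mitosis, 0 to 3 rose over the 11 other settings, and no member was called without the 7-cell library. The S phase member that rose was Mcm4, of the replicative helicase, at 1.05 and 0.994 CPM at d0 and 3.75 and 5.03 CPM at d2 (log2 change 2.11 ± 0.71). Mcm10 and Tk1 were among those that fell. Mcm10 was at 92.4 and 95.5 CPM at d0 and 1.36 and 3.67 CPM at d2 (log2 change -5.00 ± 0.38). Tk1, thymidine kinase, was at 17.8 and 13.49 CPM at d0 and 0 and 2.29 CPM at d2 (log2 change -3.31 ± 0.68). Top2a was called by DESeq2 (adjusted p = 0.0282). Ccnd1 was called without cells holding markers of other types (adjusted p = 0.00502). Mcm4 was not called under 7 of the 11 other settings (adjusted p up to 0.241), among them 4 of the 4 fits without 1 library. Without d0 replicate 1 the log2 change was 3.48 for Mki67, 3.38 for Ccnd1 and 2.71 for Myc. Leaving out d0 replicate 2 gave a log2 change of 0.82 for Ccnd1 and 0.92 for Myc. Leaving out d2 replicate 1 gave a log2 change of 3.41 for Mki67 and 6.41 for Top2a. Without d2 replicate 2 the log2 change was 2.93 for Top2a and -6.11 for Mcm10. The 7-cell library held 0 reads of Mki67 and Tk1, so without d2 replicate 2 no fold change is given.

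Inhibitors of the cycle were changed in part. Cdkn1a, the Cdk inhibitor p21, was at 5.46 and 14.4 CPM at d0 and 140.0 and 112 CPM at d2 (log2 change 3.66 ± 0.88, adjusted p = 0.0109). Gadd45g, a stress-induced growth arrest gene, was at 2.17 and 6.00 CPM at d0 and 204 and 149 CPM at d2 (log2 change 5.42 ± 0.53, adjusted p = 7.99e-07). Cdkn1b, the inhibitor p27, was at 22.9 and 26.6 CPM at d0 and 8.70 and 10.6 CPM at d2 (log2 change -1.34 ± 0.36, adjusted p = 0.0131). The d2 libraries were high in the first pair and low in p27. Of the 19 tested Cdk inhibitors and p53 targets 2 rose and 3 fell. The 11 other settings gave counts in which 1 to 3 rose and 1 to 5 fell, and without the 7-cell library 2 rose and 1 fell. Cdkn1a was not called without d0 replicate 1 (adjusted p = 0.132). Cdkn1b was not called without d0 replicate 2 (adjusted p = 0.0866), without d2 replicate 1 (adjusted p = 0.101) or without cells holding markers of other types (adjusted p = 0.0836). With d0 replicate 2 left out, the log2 change was 4.52 for Cdkn1a and 6.34 for Gadd45g.

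The promoters of the cell cycle lists hold the letters that such genes are known for, although their transcripts were mostly not called here. TTTCGCGC or TTTGGCGC, an E2F site, was found on either strand in 11 of the 31 S phase genes with a promoter in the table (35.5 percent), against 1.74 percent of the genes tested. TTTGAA or TTCGAA, the CHR element, was found in 28 of 37 G2 and mitosis genes (75.7 percent), against 16.9 percent, and CCAAT, the NF-Y box, in 29 of 37 (78.4 percent), against 42.7 percent.

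Counting genes within single cells showed 1 cell apart from all others. Each cell was thinned to 100000 reads, which left out 2 of the 76 cells of d2 replicate 2 as too shallow, and a cell was counted as holding a list when at least 25 percent of its genes had a read. For the S phase list this was 12 of 53 cells (22.6 percent, 12.3 to 36.2) at d0 replicate 1, 19 of 60 cells (31.7 percent, 20.3 to 45.0) at d0 replicate 2, 0 of 7 cells (up to 41.0 percent) at d2 replicate 1 and 9 of 74 cells (12.2 percent, 5.71 to 21.8) at d2 replicate 2, with exact binomial 95 percent intervals that cover counting error only. Many cells lay close to that threshold: 24 of 53, 33 of 60, 1 of 7 and 17 of 74 cells had a gene count within 2 of it, in the same order. Without thinning the shares were 71.7, 83.3, 28.6 and 64.5 percent in the same order. For G2 and mitosis it was 1 of the 74 cells of d2 replicate 2 and 0 of 53, 60 and 7 in the others, which allows shares of up to 6.72, 5.96 and 41.0 percent. Without thinning it was 1 of 53 and 3 of 60 cells at d0 and 0 of 7 and 2 of 76 cells at d2. The 1 cell of d2 replicate 2 that was counted after thinning then had reads for 33 of the 38 S phase genes and 37 of the 44 G2 and mitosis genes. Before thinning it held 1175528 reads and 15 of 15 hepatocyte markers, with Alb at 40234 CPM against a median of 47868 CPM in the other cells of the library. It supplied 84.7 percent of the library's Mki67 reads, 79.8 percent of Top2a and 97.4 percent of Ccnb1, the mitotic cyclin B1. Lcn2 was at 18074 CPM in it and at a median of 12207 CPM in the others. Spp1, osteopontin, was at 21039.9 CPM in it against a median of 65.9 CPM and a maximum of 21513 CPM in the others.

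**Figure D3:**
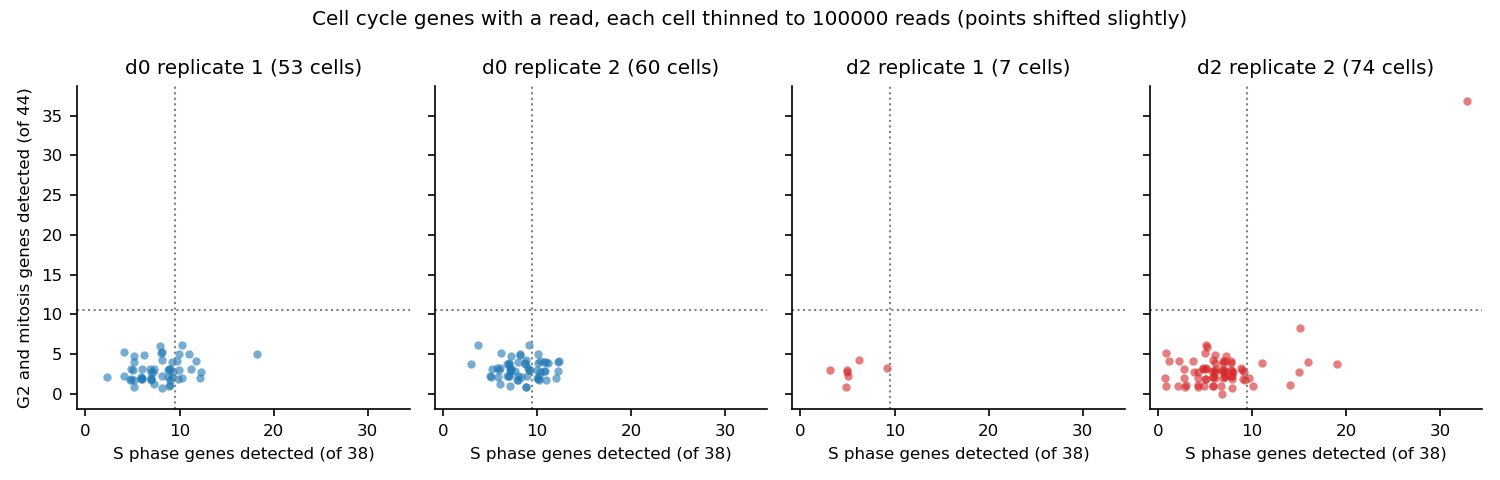
Each point is a cell of the 4 libraries after thinning to 100000 reads, placed by the number of S phase genes (of 38) and of G2 and mitosis genes (of 44) with a read; dotted lines mark 25 percent of each list. The cell with 33 and 37 genes stands at the upper right of d2 replicate 2, and all other cells lie under the line for G2 and mitosis.

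Among the remaining lists, calls were fewer or ran both ways (brackets give the range over the 11 other settings). Of 24 tested hepatocyte transcription factors 5 fell (3 to 5). Of 16 tested immediate early and AP-1 genes 3 rose (1 to 3) and 2 fell (0 to 3). Of 14 tested ERK feedback genes 1 fell (0 to 2). Of 20 tested G1 cyclins, Cdks and Myc 1 fell (0 to 3). Of 18 tested Nrf2 and oxidative stress genes 5 rose (1 to 5) and 4 fell (4 to 5). Of 24 tested nucleotide synthesis genes 4 rose (1 to 5) and 5 fell (3 to 6). Of 30 tested ribosome biogenesis genes 4 rose (0 to 7). Of 25 tested cytosolic ribosomal proteins 6 rose (0 to 8) and 1 fell (0 to 1). Of 24 tested proteasome genes 2 rose (0 to 4). Of 17 tested hypoxia response genes 2 rose (1 to 3) and 3 fell (2 to 3). Of 16 tested oncofetal and hepatoblast genes 2 rose (2 to 5). Of 11 tested female-biased genes 1 rose (0 to 1) and 2 fell (0 to 2). Of 3 tested genes of the Reg family 1 rose (0 to 1). Nr1h4 and Nfix, factors of mature hepatocytes, fell, with log2 changes of -1.02 and -1.50. Gclm, which limits glutathione synthesis, and Gpx1, a glutathione peroxidase, fell, with log2 changes of -1.23 and -1.19. In purine synthesis Paics changed by -1.52 and in pyrimidine synthesis Ctps by 3.04.

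Signals that act on growth gave mixed results. Of 18 tested growth factor receptors and ligands 3 rose and 4 fell. With the 7-cell library left out 2 rose and 2 fell, and over the 11 other settings 1 to 3 rose and 0 to 6 fell. With other libraries left out, 1 rose and 2 fell without d0 replicate 1. Met, the receptor for HGF, was at 53.7 and 55.0 CPM at d0 and 10.6 and 29.9 CPM at d2 (log2 change -1.37 ± 0.29, adjusted p = 0.00191). Ier3, an immediate early gene, was at 1.55 and 1.27 CPM at d0 and 41.8 and 38.4 CPM at d2 (log2 change 4.83 ± 0.60, adjusted p = 4.90e-06). Tnfrsf12a, the receptor for the cytokine TWEAK, was at 9.94 and 6.60 CPM at d0 and 159.8 and 163 CPM at d2 (log2 change 4.29 ± 0.38, adjusted p = 6.64e-08). Sox9, a factor of bile duct cells and of some hepatocytes after injury, was at 6.70 and 6.71 CPM at d0 and 76.0 and 94.3 CPM at d2 (log2 change 3.67 ± 0.66). The last 3 genes were high in both d2 libraries. Of 18 tested YAP targets 1 fell, which was Dlc1, a GTPase-activating protein, at 15.4 and 16.3 CPM at d0 and 3.92 and 5.63 CPM at d2 (log2 change -1.68 ± 0.38), and the other 17 were not called. That is 5.56 percent lower, against 9.88 percent over all genes tested. In the fit without the 7-cell library 1 rose and 1 fell, and 0 to 3 rose and 1 to 2 fell over the 11 other settings. Of the TGF-beta and activin list 5 of 23 tested members rose and 18 were not called. Across the 11 other settings 4 to 7 rose and 0 to 1 fell, and 5 rose without the 7-cell library. Id3, a target of BMP signals, was at 48.2 and 42.2 CPM at d0 and 242 and 219 CPM at d2 (log2 change 2.35 ± 0.24), and Skil, a repressor of Smad proteins, rose by 1.75. Met was not called with only the 4 libraries compared (adjusted p = 0.0749). The log2 change without d2 replicate 2 was -2.37 for Met.

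Of 14 tested chemokines 3 rose and 1 fell. Over the 11 other settings 1 to 4 rose and 1 to 2 fell, and without the 7-cell library 4 rose and 1 fell. Cxcl1, which attracts neutrophils, was at 12.4 and 21.8 CPM at d0 and 658 and 422 CPM at d2 (log2 change 4.98 ± 1.14, adjusted p = 0.00886). Cxcl12, which holds leukocytes and stem cells, was at 115 and 144 CPM at d0 and 39.7 and 46.6 CPM at d2 (log2 change -1.58 ± 0.20, adjusted p = 5.01e-06). B2m, the light chain of MHC class I, was at 5329 and 6309 CPM at d0 and 2020.1 and 2081 CPM at d2 (log2 change -1.50 ± 0.15, adjusted p = 3.50e-07). Zbp1, a sensor of nucleic acids induced by interferon, was at 10.6 and 9.44 CPM at d0 and 80.3 and 71.3 CPM at d2 (log2 change 2.92 ± 0.58). Of the 26 tested interferon and MHC class I genes 6 rose and 2 fell. Without the 7-cell library 6 rose and 1 fell, and over the 11 other settings 2 to 11 rose and 1 to 2 fell. In refits, 3 rose and 1 fell without d0 replicate 1 or d2 replicate 2 and 2 rose and 2 fell without d0 replicate 2. Cxcl1 was not called without d0 replicate 1 (adjusted p = 0.106) or without d0 replicate 2 (adjusted p = 0.0678).

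At the level of single cells, some of the named changes separated every cell of the days and others did not. Most of the genes given here were called in sums of these same cells, so their separation is a description and no further support. Cells are not replicates of a day, and 76 of the 83 cells at d2 come from replicate 2. Here a cell's level is its CPM with its own total as the base. All 83 cells at d2 lay above the highest of the 113 cells at d0 for Lcn2, Mt1 and Mt2, and 82 of 83 did for Orm1, Apcs and Saa2. For Lcn2 the highest d0 cell was at 301 CPM and the lowest d2 cell at 983 CPM. The 7 cells of replicate 1 ranged from 14633 to 39632 CPM for Mt1, within the range of replicate 2, 8433 to 45186 CPM. For the keratins 78 (Krt8) and 77 (Krt18) cells of 83 lay above every d0 cell, for Plin2 79, for Nid1 76, for Hspa5 54 and for Cdkn1a 51. Going down, all 83 cells lay under the lowest d0 cell for Car3, 82 for Hpd and 81 for Serpina6. For Cxcl14 and Sult1e1, among the largest rises, 69 and 70 of the 83 cells lay above every d0 cell, and 1 of the 7 cells of replicate 1 held no read of each. Nid1 had no read in 2 of those 7 cells. For Hsd3b5 and Cyp7a1 0 of 83 cells lay under every d0 cell, since the lowest d0 cell was itself at 0 CPM. Alb overlapped almost fully, with 2 cells of 83 under the lowest d0 cell.

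Of the zoned genes followed here, Cyp2e1 kept a wide range among the cells at d2, while the high end of Glul was not seen there. Cyp2e1 ranged from 27.6 to 19136 CPM in d0 replicate 1, where the median was 3557 CPM, and from 56.3 to 25116 CPM in d0 replicate 2. At d2 it ranged from 4.87 to 1534 CPM in replicate 1 and from 2.83 to 2391 CPM in replicate 2, with 38 of 83 cells under every d0 cell. The shift thus covered both the high and the low end. For Glul the highest cells of the d0 libraries were at 6811 and 5789.9 CPM, and those of the d2 libraries at 87.6 and 319 CPM, while the medians were 55.1 and 27.0 CPM at d0 and 25.1 and 19.0 CPM at d2. No cell at d2 thus had the Glul level of the highest d0 cells; whether such cells were lost, not sampled or changed was not tested.

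**Figure D4:**
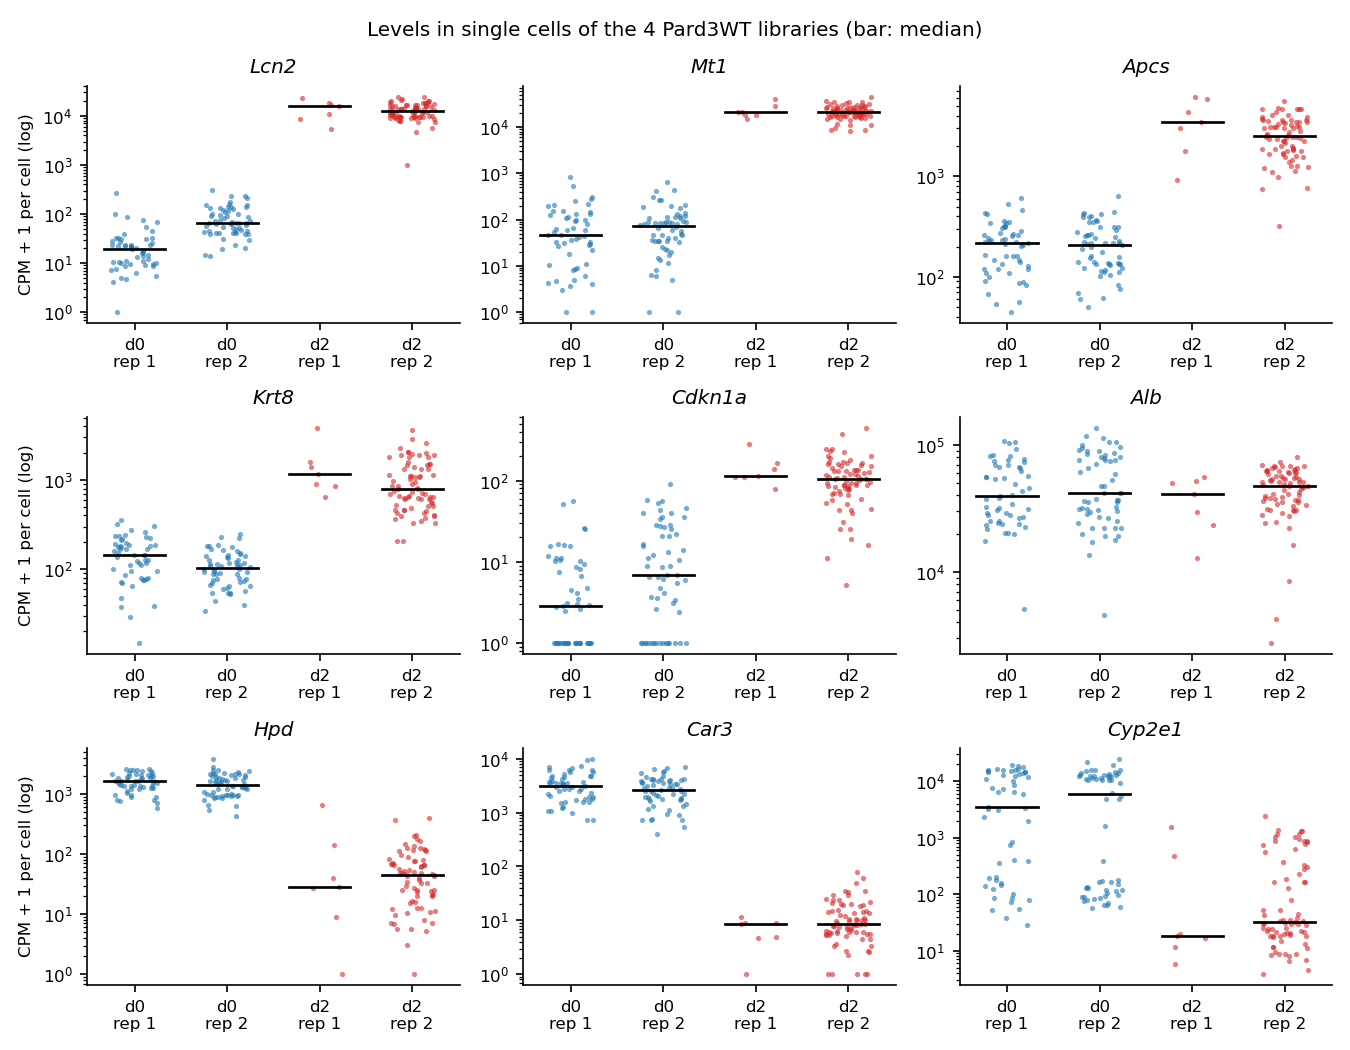
Level of 9 genes in each cell of the 4 libraries, as CPM + 1 on a logarithmic axis, blue for d0 and red for d2, with a bar at the median. Lcn2 and Mt1 at d2 lie above and Car3 at d2 lies under every d0 cell, Alb overlaps, and Cyp2e1 shows a wide range on both days.

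By day 7 the levels of 7 genes followed here lay closer to those before surgery than to those at d2. In the 4 Pard3WT d7 libraries, of the same strain, age and genotype, Lcn2 lay between 48.5 and 93.2 CPM, Mt1 between 171 and 241 CPM, Krt8 between 116 and 148 CPM and Hspa5 between 321 and 459 CPM. Among the genes that had fallen, Car3 lay between 2803 and 3214 CPM, Cyp7a1 between 14.9 and 36.0 CPM and Ghr between 495 and 547 CPM. Tested against d0, 0 of 15391 genes were called by edgeR (0 percent), with 635 at an unadjusted p under 0.05 and 20 called by DESeq2. Tested against d2, 3314 genes were called (21.5 percent), 1884 higher (12.2 percent) and 1430 lower (9.29 percent) at d7. These contrasts share the d0 or the d2 libraries with the main one, and a gene that was not called against d0 is not thereby shown to be equal to it.

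The Pard3HMKO livers went through the same days and gave the same comparison in libraries that share none with the control livers. Pard3 itself does not tell these libraries from the controls: it was at 38.3 ± 5.22 CPM at d0 and 22.8 ± 1.298 CPM at d2 (mean and SD of 2 libraries, as for all Pard3HMKO levels below), where the Pard3WT libraries were at 33.8 and 36.6 and 15.3 and 22.1 CPM. A level per gene also counts reads outside the floxed part, so it does not check the deletion, and the groups are called here by their labels. There 2900 genes were called at d2 against d0 (18.8 percent), 1354 higher (8.80 percent) and 1546 lower (10.0 percent), and with scaling by total reads 4144 were called, 542 higher and 3602 lower, with the median of all genes at -0.66. Of the 891 genes that rose in Pard3WT 564 also rose in Pard3HMKO, which is 63.3 percent of the first and 41.7 percent of the second, and 6 fell. Of the 1520 that fell in Pard3WT 971 also fell in Pard3HMKO, 63.9 and 62.8 percent, and 25 rose. The size of the change was called different between the genotypes for 365 genes (2.37 percent), 83 with a higher (0.539 percent) and 282 with a lower (1.83 percent) log2 change in Pard3WT. This split depends on scaling. TMM factors lay between 0.983 and 1.02 in the Pard3WT d0 and d2 libraries and at 0.764 and 0.714 in the Pard3HMKO d2 libraries, and with scaling by total reads the split was 530 to 42, with the median of all genes at a difference of 0.57. With each cell weighted equally it was 288 to 52. Named differences below were called under both of these scalings as well, except where said.

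Several differences were larger than the spread between libraries. Aox3, an aldehyde oxidase, was at 389 and 358 CPM at d0 and 65.5 and 64.1 CPM at d2 in Pard3WT (-2.53), and in Pard3HMKO it fell from 396 ± 35.3 to 5.20 ± 0.942 CPM (-6.25), a difference of 3.72 ± 0.24, adjusted p = 1.63e-08. Abcb11, the bile acid export pump, changed by -1.09 in Pard3WT and by -4.24 in Pard3HMKO, from 208 ± 3.98 to 10.96 ± 0.281 CPM, a difference of 3.16 ± 0.31, adjusted p = 8.72e-06. Both fell further in the libraries labelled Pard3HMKO. Enpp2, which makes lysophosphatidic acid, was not called in Pard3WT, at 55.4 and 62.9 CPM at d0 and 64.6 and 78.3 CPM at d2, and went from 63.8 ± 4.29 to 10.6 ± 0.852 CPM in Pard3HMKO, a difference of 2.86 ± 0.32, adjusted p = 3.70e-05. Fmo5, a flavin monooxygenase, was at 326 and 281 CPM and 489.5 and 335 CPM in Pard3WT and went from 325 ± 81.7 to 46.3 ± 7.55 CPM in Pard3HMKO, a difference of 3.25 ± 0.38, adjusted p = 6.04e-05. Both genes fell in Pard3HMKO and were not called in Pard3WT. Krt8 rose by 3.09 in Pard3WT and by 0.91 in Pard3HMKO, from 125 ± 10.8 to 235 ± 9.86 CPM, a difference of 2.18 ± 0.38, adjusted p = 0.00316. Enpp2 was called without cells holding markers of other types (adjusted p = 0.0321). Fmo5 was called without cells holding markers of other types (adjusted p = 0.0311).

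In the other direction, several genes fell further in the control livers. Hpd, of tyrosine breakdown, went from 1289 ± 121 to 526 ± 58.9 CPM in Pard3HMKO, against the fall to 84.6 and 56.0 CPM in Pard3WT, a difference of -3.19 ± 0.27, adjusted p = 1.45e-06. Akr1c6, a hydroxysteroid dehydrogenase, was at 2213 and 1983 CPM at d0 and 53.4 and 39.8 CPM at d2 in Pard3WT and went from 1639 ± 275 to 204 ± 16.52 CPM in Pard3HMKO, a difference of -2.50 ± 0.26, adjusted p = 1.85e-05. Sepp1, the selenium carrier of plasma, was at 3902 and 4393 CPM and 706 and 859 CPM in Pard3WT and went from 3631 ± 655 to 2818 ± 144 CPM in Pard3HMKO, a difference of -2.04 ± 0.22, adjusted p = 3.07e-05. Dio1, which converts thyroxine, was at 94.4 and 87.4 CPM and 3.58 and 6.21 CPM in Pard3WT and went from 87.8 ± 7.80 to 40.5 ± 5.00 CPM, a difference of -3.00 ± 0.33, adjusted p = 3.70e-05. In these 4 genes the log2 change was further below 0 in Pard3WT. Cyp8b1 went from 141 ± 54.8 to 38.3 ± 10.7 CPM in Pard3HMKO, a difference of -6.81 ± 0.96, adjusted p = 0.00166, and Slc10a1 from 627 ± 24.8 to 168 ± 15.51 CPM, a difference of -1.83 ± 0.28, adjusted p = 0.00113. Serpina3n rose further in Pard3HMKO, from 393 ± 136 to 8364 ± 653 CPM, a difference of -2.33 ± 0.32, adjusted p = 4.74e-04, and Insig1, which fell in Pard3WT, went from 379 ± 25.8 to 895 ± 78.3 CPM, a difference of -2.74 ± 0.41, adjusted p = 9.25e-04. The difference in Cyp8b1 was not called without cells holding markers of other types (adjusted p = 0.0970).

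Of the 153 named genes tested, 30 had a called difference between the genotypes, against 2.37 percent of all genes tested. Some of the 30 were named because of that call, so the count is no rate. The other named genes had no called difference. Mt1 rose by 9.31 in Pard3HMKO (-1.52 ± 1.68, adjusted p = 0.835 for the difference), Lcn2 by 8.51 (-0.76 ± 0.95, adjusted p = 0.867) and Cdkn1a by 2.43 (1.23 ± 1.13, adjusted p = 0.773). Among falls, Car3 changed by -8.56 there (0.09 ± 0.76, adjusted p = 1.000) and Cyp7a1 by -7.34 (-0.61 ± 1.03, adjusted p = 0.921). A difference that was not called does not show that the genotypes responded alike. Among the lists, oxidative phosphorylation had 15 of 26 members lower and 1 higher in Pard3WT and 5 higher in Pard3HMKO, and 7 members had a called difference, all of them lower in Pard3WT. With scaling by total reads the list had 1 member higher and 11 lower in Pard3HMKO, and edgeR called a difference in 0 of the 26 members (4 at an unadjusted p under 0.05), against 11 by DESeq2 with its own factors. Of the 7, Cox8a and Atp5c1 had differences of -1.10 ± 0.18, adjusted p = 0.00246 and -1.13 ± 0.22, adjusted p = 0.00656. The acute phase list had 22 of 24 members higher in Pard3HMKO and 17 in Pard3WT, with 4 called differences, all lower in Pard3WT, and 21 members higher and 2 called differences with scaling by total reads. The difference in Cox8a was not called with scaling by total reads (adjusted p = 0.227) or by limma with each cell weighted equally (adjusted p = 0.394). The difference in Atp5c1 was not called with scaling by total reads (adjusted p = 0.228), without Pard3HMKO d2 replicate 2 (adjusted p = 0.0526) or by limma with each cell weighted equally (adjusted p = 0.423).

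**Figure D5:**
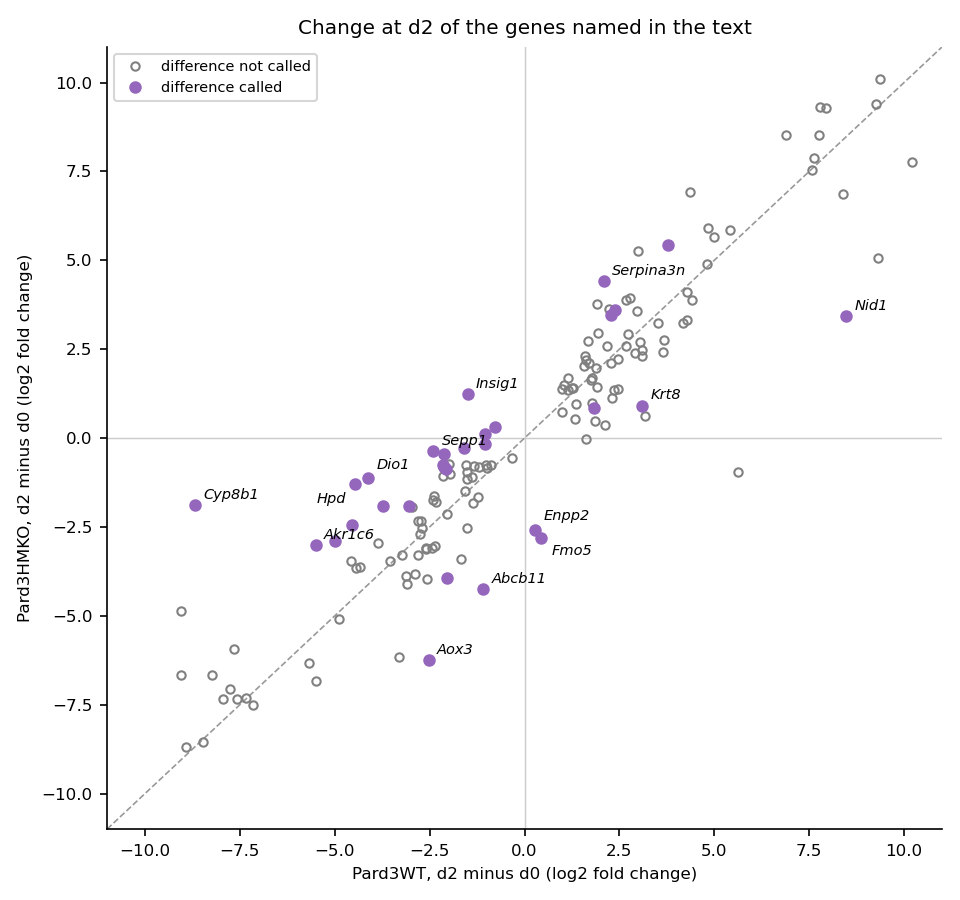
Log2 change at d2 against d0 in Pard3WT (horizontal) and Pard3HMKO (vertical) for the genes named in the text; filled purple points are genes with a called difference between the genotypes, open grey points those without, and the dashed line marks equal change. Aox3, Abcb11, Enpp2 and Fmo5 lie under it and Hpd, Dio1, Akr1c6 and Cyp8b1 above it.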

How the data were processed

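Smart-seq3xpress libraries of single cells were analysed. The deposited table holds whole-number counts per gene and cell for 40824 genes. Reads were checked with FastQC 0.11.9, trimmed with Trimmomatic 0.39 and aligned with HISAT2 2.1.0 to GRCm38/mm10, per the submitters' processing notes. The sources used here name no counting tool or annotation and do not say whether counts are reads or molecules; they are called reads. The extract protocol in the labels describes embryonic tissue, so how adult hepatocytes were isolated is not given in the sources used here. Columns were taken by the prefix that names each library, and 3495 columns of other groups were not used. The 92 spike-in rows held 0 reads in the adult libraries and were left out. No cell filter and no doublet caller was applied.

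Counts were summed over the cells of a library. The 18 adult libraries (6 groups) were fitted with edgeR 4.0.16 (filterByExpr, TMM, trended dispersion, robust quasi-likelihood F test, 2-sided, Benjamini-Hochberg over all genes tested, called under 0.05) in R 4.3.3. Alternatives used DESeq2 1.42.0 and limma 3.58.1 (log2 of CPM with a pseudocount of 1). Sums and intervals were computed in Python 3.11.15 with pandas 2.3.3, numpy 2.4.6 and scipy 1.17.1, and plots were drawn with matplotlib 3.10.9. The scripts were tested on simulated data.

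The members and the 48 function lists and 7 marker lists were chosen with earlier results of these data known, so they support nothing beyond description. Of 1249 list entries, 8 were matched through an older symbol and 2 had no row. Named genes are a fixed set (Pard3, Alb, Afp, Mki67, Ccnd1, Myc and Cdkn1a), the 12 largest called rises and falls with at least 10 CPM and no overlap between days, leaving out unnamed, mitochondrial and ribosomal protein genes, list members with the smallest p or named beside their list's counts, and called differences between genotypes. The STAT, metal response and ER stress motifs were chosen after seeing which lists changed. Genes of a list are not independent, and lists can share members. Some members of the lists are not reported here.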

Additional observations from a re-analysis of the deposited data

Results flagged for a closer look

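The d2 change of 30 of the 153 named genes tested differed between Pard3WT and Pard3HMKO by the test of the difference itself (edgeR, adjusted over all 15391 genes tested). Some of them were named because this difference was called, so the count is no rate. Over all genes tested the share was 2.37 percent. Values here are the log2 change in Pard3WT minus that in Pard3HMKO. The libraries of the genotypes share no sample, and virus and deletion cannot be told apart.

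Of the 30 named genes, 16 were called as well with scaling by total reads and by limma with each cell weighted equally. The difference was above 0 at 5.03 for Nid1, 1.91 for Slc40a1, 2.18 for Krt8, 0.98 for Myh9, 3.16 for Abcb11, 3.72 for Aox3, 2.86 for Enpp2 and 3.25 for Fmo5. It was below 0 at -2.33 for Serpina3n, -2.74 for Insig1, -6.81 for Cyp8b1, -1.83 for Slc10a1, -3.19 for Hpd, -2.50 for Akr1c6, -2.04 for Sepp1 and -3.00 for Dio1. Nid1 had a difference of 0.53 (adjusted p = 0.973) once marked cells were left out, and missed the threshold without Pard3WT d0 replicate 2 (adjusted p = 0.0523). The differences in Slc40a1 (adjusted p = 0.04999) and Myh9 (adjusted p = 0.0497) lie just under the threshold and were lost in 8 and 10 of 16 alternatives, with adjusted p up to 0.297 and 0.259, among them the replicate block (0.0568 and 0.0934) and the fit of the compared libraries alone (0.0943 and 0.0927).

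The other 14 were not called under at least 1 of these scalings. The difference was below 0 at -1.65 for Apcs, -1.17 for Serpina3m, -1.23 for Manf, -1.37 for Fabp1, -2.10 for Cyp2e1, -1.13 for Hgd, -1.19 for Fah, -1.30 for Igfbp2, -1.69 for C9, -1.32 for Apoa2, -1.10 for Cox8a, -1.13 for Atp5c1, -0.86 for Sod1 and -2.10 for Mcm10. With scaling by total reads the median difference of all genes lay at 0.57, against -0.06 with TMM factors.

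In the 7 genes whose d7 levels are given, no Pard3WT d7 library stood apart from the other 3 by Dixon's ratio with a critical value of 0.829, where chance marks about 1 in 20 groups.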

How the results depend on the processing

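No call of a named gene in Pard3WT at d2 against d0 reversed under any of the 12 alternatives, which give 2363 calls with scaling by total reads, 2461 with RLE factors, 2663 without a filter on low counts, 3123 by DESeq2, 2356 by limma with each cell weighted equally and 1831 without cells holding markers of other types, against 2411. With only the 4 libraries compared 1537 were called, and with each of the 4 left out in turn between 1487 (without d0 replicate 2) and 2979 (without d2 replicate 2). The fit without a filter set every gene's spread to the trend. The fit without marked cells also lost 2 Pard3HMKO d7 libraries, in which every cell was marked. It left out 5 of the 7 cells of Pard3WT d2 replicate 1. In Pard3HMKO, with 2900 calls, the 4 libraries alone gave 4818, an alternative chosen after seeing the data, and leaving out 1 library 1670 to 1915. The difference between the genotypes, with 365 calls, gave 665 by DESeq2, 572 with scaling by total reads, 565 without a filter and 114 to 765 with 1 library left out. The causes of these shifts were not tested, apart from fewer libraries in the fits that leave them out.

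The S phase shares depend on depth and on the part of the list required. Asking for 15 percent gave 79.2 and 91.7 percent of cells at d0 and 64.9 percent in d2 replicate 2, and asking for 40 percent gave 1.89, 0 and 4.05 percent. Thinning to 50000 reads gave 9.43 and 3.33 percent at d0 and 0 and 7.89 percent at d2, and no thinning 71.7, 83.3 and 64.5 percent, so no order of the days is read from them. The G2 and mitosis counts depend on the setting as well. Asking for 15 percent of that list gave 2 of 74 cells in d2 replicate 2, and no thinning gave 1 of 53 and 3 of 60 cells at d0.

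With replicate number as a block, 2337 genes were called in Pard3WT, 2823 in Pard3HMKO and 332 for the difference. Deviations of same-numbered Pard3WT libraries correlated at -0.01, so the numbers were not taken to pair the samples. In data simulated for this contrast, 50 genes at each of 4 sizes were changed among 14810, with spread drawn from the trend alone. There the test recovered 2, 22, 98 and 100 percent of genes changed 1.5, 2, 4 and 8-fold. With so few changed genes the adjusted threshold is stricter than in the real data, where 2411 genes were called. The shares thus do not give the power of the real test, in which small changes can still go undetected.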
